A study of Mus musculus with 2 samples.

Results

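The genes described here are 43 mouse genes of the germline and of meiosis, taken by name from RefSeq annotation of mm10. They are 43 of 21774 protein-coding genes on chromosomes 1 to 19, X and Y. They were looked up in lists of H3K9me2 peaks, regions where dimethylated lysine 9 of histone H3 was called above the local background. H3K9me2 was mapped by CUT&Tag, in which an antibody brings a tagging transposase to marked chromatin, in activated B cells of C57BL/6 mice. Each genotype was represented by 1 library, wild type (WT) or the genotype labelled jmjd1c B KO (KO). The Cre line, the activating stimulus and the age of the mice were not given in the sources used here. The WT list held 31623 peaks from 33474010 tags and the KO list 32149 peaks from 34502392 tags. Differences between the genotypes could not be set against replicates, so p-values are not given, and the peak lists hold no expression with which to check the labelled cell type. Intervals are exact 95% intervals for counting error only.

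H3K9me2 is deposited mainly by the methyltransferases G9a and GLP and removed by jumonji demethylases, the family to which Jmjd1c belongs. Many germline genes are kept silent in somatic cells, and loss of G9a or of the complex of E2F6, MGA and MAX is known to release some of them. Their products load small piRNAs that silence transposons, pair and recombine homologous chromosomes in meiosis, or build the sperm and the egg.

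Most of these genes had no H3K9me2 peak in either genotype. The window of a gene, its body with 2 kb on both sides, held a peak for 4 of the 43 genes in WT (9.30%, 2.59 to 22.1%) and for 5 in KO (11.6%, 3.89 to 25.1%). Over all protein-coding genes the shares were 9.69% in WT and 9.90% in KO, so the germline genes lay near the background in both libraries. The WT genes were Sycp2, Sohlh2, Nlrp14 and Zpbp, and the KO genes were these 4 with Nobox. The other 38 genes had none in either library, which means only that no region there passed the authors' threshold against the surrounding 10000 bp. Whether H3K9me2 domains wider than that went uncalled was not tested. With 10 kb on both sides the counts were 4 in WT and 6 in KO (14%, 5.30 to 27.9%), against 12.8% and 13.1% of all protein-coding genes, and the gene added in KO was Zp2.

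The counts were also near those of protein-coding genes of like length. The longest genes most often held a peak, and the germline genes had a median length of 28.2 kb against 17.2 kb over all protein-coding genes. All protein-coding genes were divided into 10 classes of equal number by window length, and the share with a peak in each class was weighted by the number of germline genes in it. This gave 9.21% for WT and 9.44% for KO, or 3.96 and 4.06 of 43 genes, beside the 4 and 5 found. With 20 classes the shares were 7.75% for WT and 8.04% for KO. In the longest of the 10 classes, with windows from 112.9 to 2394.4 kb, 41.1% of protein-coding genes had a WT peak and 41.7% a KO peak. The 3 germline genes there were 184.6 kb long or shorter, so this class matches their length only loosely. Of these 3, Zpbp had peaks in both libraries, whereas Sycp1 and Tex14 had none.

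**Figure D1:**
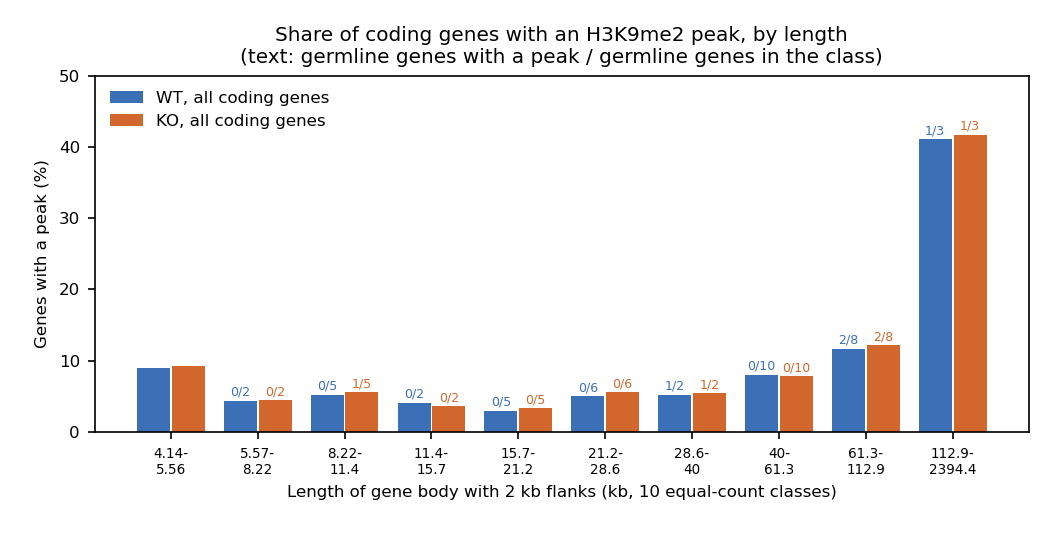
The bars show the percentage of protein-coding genes with a peak in their window (vertical axis), in 10 classes of window length in kb (horizontal axis), for WT (blue) and KO (orange). The fraction above each bar is the number of germline genes with a peak over the number of germline genes in that class; in the class from 40.0 to 61.3 kb 0 of 10 had one in either library.

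The 2 libraries mostly named the same genes. A peak in both was found for 4 genes (9.30%), against 7.78% of all protein-coding genes, in WT only for 0 genes (0 to 8.22%), against 1.90%, and in KO only for 1 gene (2.33%, 0.0589 to 12.3%), against 2.11%. Over all 43 windows there were 12 WT peaks (6.20 to 21.0) and 13 KO peaks (6.92 to 22.2). That is 5.95 per Mb in WT (3.08 to 10.4) and 6.45 per Mb in KO (3.43 to 11.0). Both were below the 8.71 and 8.87 per Mb of all protein-coding windows pooled. Those averages lie inside these intervals and are not matched for length. All intervals over peaks treat the peaks as independent. However, 7 of the 12 WT peaks lay in Nlrp14 and 6 of the 13 KO peaks in Zpbp, so such intervals may be too narrow. Single sites can differ where the gene is shared. Of the 12 WT peaks 6 were overlapped by a KO peak (50%, 21.1 to 78.9%), and of the 13 KO peaks 6 by a WT peak (46.2%, 19.2 to 74.9%), beside 46.4% and 45.9% of the whole lists. The shared sites lay in Zpbp (3), Nlrp14 (2) and Sohlh2 (1).

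By the authors' q, the peaks at these genes were spread over most of the range of their lists, from percentile 16.5 to 89.1 in WT and from 0.921 to 88.2 in KO. The −log10 q had a median of 3.08 over the 12 WT peaks and of 3.27 over the WT list, and of 2.78 over the 13 KO peaks and of 3.01 over the KO list. In WT 8 of 12 and in KO 8 of 13 lay below their list's median, while 3 WT and 3 KO peaks stood at percentile 75 or higher. The median fold enrichment was 2.80 over the 12 WT peaks and 2.72 over the WT list, and 3.16 over the 13 KO peaks and 3.08 over the KO list. The highest pileup was 28.4 in WT and 27.8 in KO. Peaks with a q of 1e-05 or lower were found at 1 germline gene in WT, Nlrp14, and at 0 in KO, against 3.28% and 2.39% of all protein-coding genes.

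Start sites were reached at 3 genes, each in 1 library only. A reference promoter, from 250 bases before to 50 after a transcription start site, was at hand for 35 of the 43 genes. Within 1 kb of a start site there was a WT peak at 1 of them, Sycp2 (2.86%), and a KO peak at 2, Sohlh2 and Nobox (5.71%). Over 17492 protein-coding genes with a promoter the shares were 2.97% in WT and 3.05% in KO, and 1.88% had a peak there in both. Of the germline genes 0 had a peak there in both. The share of all protein-coding genes with such a peak in 1 library only was not computed, so the 3 genes are not set apart by it. For Sohlh2 a WT peak lay 2036 bp past the start site, outside the 1 kb limit. Counted at either end of all 43 genes, the numbers were again 1 in WT (2.33%, 0.0589 to 12.3%) and 2 in KO (4.65%, 0.568 to 15.8%). Over all protein-coding genes the shares were 3.62% and 3.50%, inside these intervals.

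The sequences before these start sites are shown because a called peak lay on them. They are the 250 bases before the start site in the RefSeq table of GRCm38.p6, read 5′ to 3′ on the gene's strand, and capitals mark the bases under the peak. For Nobox (chr6:43309555-43309804, minus strand) the KO peak covered 228 of the 250 bases, for Sohlh2 (chr3:55181794-55182043, plus strand) the KO peak covered 195, and for Sycp2 (chr2:178407659-178407908, minus strand) the WT peak covered 21.
Nobox: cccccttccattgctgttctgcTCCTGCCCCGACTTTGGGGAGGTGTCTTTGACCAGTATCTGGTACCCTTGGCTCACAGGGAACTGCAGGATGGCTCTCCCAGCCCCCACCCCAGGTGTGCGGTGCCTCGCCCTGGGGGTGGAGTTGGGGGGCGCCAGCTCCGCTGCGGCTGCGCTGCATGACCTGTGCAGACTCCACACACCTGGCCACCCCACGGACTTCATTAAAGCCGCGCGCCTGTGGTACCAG
Sohlh2: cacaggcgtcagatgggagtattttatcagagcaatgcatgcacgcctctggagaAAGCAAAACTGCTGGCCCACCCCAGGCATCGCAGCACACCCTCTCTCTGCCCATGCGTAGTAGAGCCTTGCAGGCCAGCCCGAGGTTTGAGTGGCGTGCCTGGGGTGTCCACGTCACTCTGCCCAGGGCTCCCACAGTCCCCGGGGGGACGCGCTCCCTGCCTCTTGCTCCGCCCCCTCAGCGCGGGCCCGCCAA
Sycp2: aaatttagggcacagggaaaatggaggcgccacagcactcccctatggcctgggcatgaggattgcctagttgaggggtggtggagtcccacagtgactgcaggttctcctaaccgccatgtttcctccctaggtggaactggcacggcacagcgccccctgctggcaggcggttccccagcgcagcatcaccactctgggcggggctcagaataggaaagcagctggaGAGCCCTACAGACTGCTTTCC

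Nobox encodes a homeobox transcription factor that oocytes need to build follicles. The gene spans chromosome 6 from 43303674 to 43310072. It had 0 WT peaks (0 to 3.69) and 1 KO peak (0.0253 to 5.57), from 43309399 to 43309782, or from 228 bp before to 155 bp after the start site shown above. That start site, at 43309554, lies inside the annotated gene. From the start-side end of the gene the midpoint of the KO peak was 0.482 kb away, inside the gene body. Its −log10 q of 3.14 placed it at percentile 56.1 of the KO list. The nearest WT peak lay 41.3 kb from the gene and 47.0 kb from this KO peak.

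Sohlh2, a helix-loop-helix factor gene that works in young spermatogonia and oocytes, spans chromosome 3 from 55182044 to 55209957. Its start site lay under a KO peak from 55181849 to 55182217, with a −log10 q of 2.78 (percentile 37.8), and the nearest WT peak was 1.86 kb downstream, from 55184080 to 55184700. That WT peak overlapped a 2nd KO peak, from 55184622 to 55184829, which had a −log10 q of 2.12 and stood at percentile 0.921. Its q was thus close to the authors' limit of 0.01 for narrow or strong regions. The window thus held 1 WT peak (0.0253 to 5.57) and 2 KO peaks (0.242 to 7.22), covering 621 and 577 bp. A further WT peak lay 5917 bp beyond the far end.

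Sycp2 encodes a lateral element protein of the synaptonemal complex, the scaffold that holds paired chromosomes together. It spans chromosome 2 from 178345295 to 178407776 and had 1 peak in each library, at different places. The WT peak, from 178407349 to 178407679, ran from 21 bp before to 309 bp after the start site. The KO peak, from 178366232 to 178366863, lay in the gene body, with its midpoint 41.2 kb from the start-side end of the gene. No KO peak lay within 40.5 kb of the WT start site peak, and the −log10 q of the 2 peaks were 3.03 and 2.73.

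Nlrp14 held more peaks in WT and Zpbp more in KO, and neither had a peak within 1 kb of an end. Nlrp14, an NLR family gene of the germline, spans chromosome 7 from 107113455 to 107198103, and its strand was not given in the tables used. It had 7 WT peaks (2.81 to 14.4) and 3 KO peaks (0.619 to 8.77), covering 4290 bp (4.84% of the window) and 1293 bp (1.46%). The intervals of the 2 counts overlap. In its length class 0.965% of 2177 protein-coding genes had 7 or more WT peaks and 4.87% had 3 or more KO peaks. Nlrp14 was picked by its peaks, so small shares are partly built in. The WT peaks spread over the middle of the gene from 107133913 to 107179725, and the last of them, from 107179279, had the highest −log10 q among all member peaks, 5.24. Both shared sites are here, a WT peak from 107138526 to 107139343 with a KO peak from 107138893 to 107139460, and a WT peak from 107172589 to 107173323 with a KO peak from 107172476 to 107173011. The 3rd KO peak, from 107128881 to 107129069, lay within Olfr715, an olfactory receptor gene inside the Nlrp14 span, and 4.84 kb from the nearest WT peak. NLR and olfactory receptor genes have close relatives, so reads at this locus may belong to other copies, which was not tested.

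Zpbp encodes a protein of the sperm acrosome that binds the egg coat, and is the longest of the 43 genes at 184.6 kb, on chromosome 11 from 11279624 to 11464223. It had 3 WT peaks (0.619 to 8.77) and 6 KO peaks (2.2 to 13.1), covering 1817 bp (0.963%) and 2846 bp (1.51%), and again the intervals overlap. All 3 WT peaks were shared, at 121.1, 144.2 and 152.8 kb from the start-side end of the gene. The 3 other KO peaks lay 5.37, 7.64 and 10.2 kb from the nearest WT peak, and all 9 peaks were in the part of the gene far from its start, at 121.1 to 178.7 kb. In its length class 30.3% of 2178 protein-coding genes had 3 or more WT peaks and 21.3% had 6 or more KO peaks. Zpbp too was picked by its peaks. The windows of that class run from 112.9 to 2394.4 kb. It thus includes genes far longer than Zpbp and is not a close match in length.

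Zp2, a zona pellucida gene of the egg coat, had no peak in its window. The nearest was a KO peak 6.44 kb beyond its high-coordinate end, on chromosome 7 from 120151729 to 120152128, while the nearest WT peak was 32.0 kb from the gene.

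**Figure D2:**
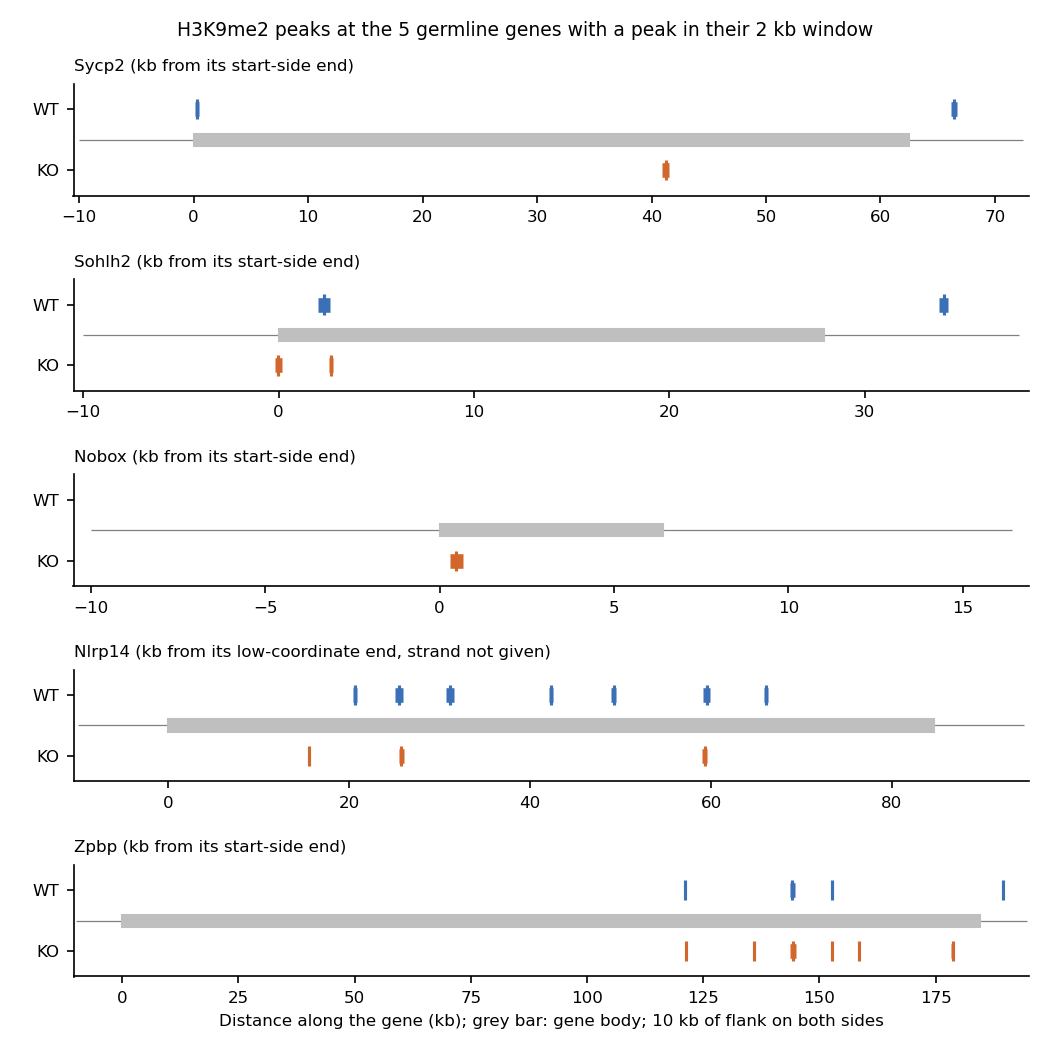
Positions of H3K9me2 peaks in WT (blue, upper row) and KO (orange, lower row) along Sycp2, Sohlh2, Nobox, Nlrp14 and Zpbp, in kb from the start-side end of the gene (from the low-coordinate end for Nlrp14). The grey bar is the gene body and the thin line its 10 kb flanks, each coloured block is 1 peak (drawn with a central tick so that narrow peaks can be seen), and the 7 WT and 3 KO peaks of Nlrp14 and the 3 WT and 6 KO peaks of Zpbp lie inside the genes.

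The remaining 37 genes had no peak within 10 kb in either library, at a median of 661.3 kb from the nearest one in WT and of 671.3 kb in KO. Over all 43 genes the median distance to a peak was 483.9 kb in WT and 470.5 kb in KO, against 344.8 and 323.9 kb over all protein-coding genes. More than 1 Mb from any peak were 13 genes in WT and 13 in KO (30.2% in both), against 24.4% and 22.7% of protein-coding genes. No peak within 500 kb was found for 21 of 43 genes in each library (48.8%, 33.3 to 64.5%), against 41.6% in WT and 40.2% in KO. None in both libraries was found for 20 genes, and the share of all protein-coding genes for this was not computed.

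Genes of the piRNA pathway, which guards the germline against transposons, had no peak in any of their 11 windows, a count of 0 that allows a share of up to 28.5% and so does not set them apart from the 9.69% and 9.90% of all protein-coding genes. Their distances ran from 116.8 to 2702 kb in WT and from 116.9 to 2702 kb in KO. The nearest was Piwil1, a piRNA-binding Argonaute, at 116.8 and 116.9 kb. Ddx4, the germ cell RNA helicase, was 785.3 kb from a WT peak and 1418 kb from a KO peak. Among the Tudor domain genes, whose products hold piRNA factors together in germ granules, Tdrd7 at 2702 kb in both libraries was the most distant, followed by Tdrd9 at 1958 kb in WT and 1802 kb in KO. For 7 of the 11 genes no peak lay within 500 kb in WT, and for 7 in KO. Over all protein-coding genes this held for 41.6% in WT and 40.2% in KO. No interval was computed for the 11 genes, so the count does not set them apart. The sets differed by 1 gene each way: Piwil4 had 1 KO peak there and no WT peak, and Tdrkh 1 WT peak and no KO peak.

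Of the 6 genes of the synaptonemal complex only Sycp2 had a peak in its window, in both libraries (16.7%, 0.421 to 64.1%). That interval includes the 9.69% in WT and 9.90% in KO of all protein-coding genes. Syce1, a central element gene, was the nearest of the 37, with a WT peak at 55.0 kb and a KO peak at 72.3 kb. Sycp1, the transverse filament gene, was 234.7 and 179.3 kb from a peak, and Sycp3, a lateral element gene, 383.8 and 378.5 kb. Syce2 was the farthest of the 6, at 1115 kb in both libraries.

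The 10 genes of meiotic entry, cohesin, the chromosome axis and recombination had no peak in any window, which allows up to 30.8% and again includes the shares of all protein-coding genes. Msh4, a gene of crossover formation, was the nearest at 92.1 kb in WT and 149.4 kb in KO. Spo11, which encodes the enzyme that makes meiotic DNA breaks, was 284.6 and 284.9 kb away. The most distant in both libraries was Dmc1, the meiotic strand exchange gene, at 4474 kb in WT and 2951 kb in KO. The cohesin gene Stag3 came next in WT at 3385 kb, but in KO, at 1120.0 kb, it was nearer to a peak than Smc1b at 1447 kb and Hormad2 at 1146 kb. Stra8, a gene of meiotic entry, was 709.9 and 769.7 kb from a peak, and Rec8, the meiotic cohesin subunit, 483.9 and 455.9 kb.

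Of the 6 genes placed with male germ cells only Zpbp had a peak in its window, again in both libraries (16.7%, 0.421 to 64.1%). The interval includes the 9.69% in WT and 9.90% in KO of all protein-coding genes. Dazl, an RNA-binding protein gene of germ cells of both sexes, was 470.5 kb from the nearest peak in both libraries, and Tex15 was 364.9 and 364.8 kb away. Tex14, a gene of the bridges between spermatogenic cells, was 1526 kb from a peak in both libraries, although it is 150.8 kb long.

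Of the 10 oocyte and early embryo genes 2 had a peak in the window in WT (2.52 to 55.6%) and 3 in KO (6.67 to 65.2%), intervals that include the 9.69% and 9.90% of all protein-coding genes. Nlrp5, a maternal NLR gene of the same family as Nlrp14, had none, with the nearest at 94.2 and 93.9 kb. Dppa3, which protects the maternal genome from demethylation, was 384.7 kb from a WT peak and 334.2 kb from a KO peak. Sohlh1, the partner of Sohlh2, was 1665 kb from a WT peak and 1690 kb from a KO peak. Figla and Zp3, a factor and a structural gene of the egg coat, were 1507 and 2167 kb from a WT peak and 1780 and 1164 kb from a KO peak.

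**Figure D3:**
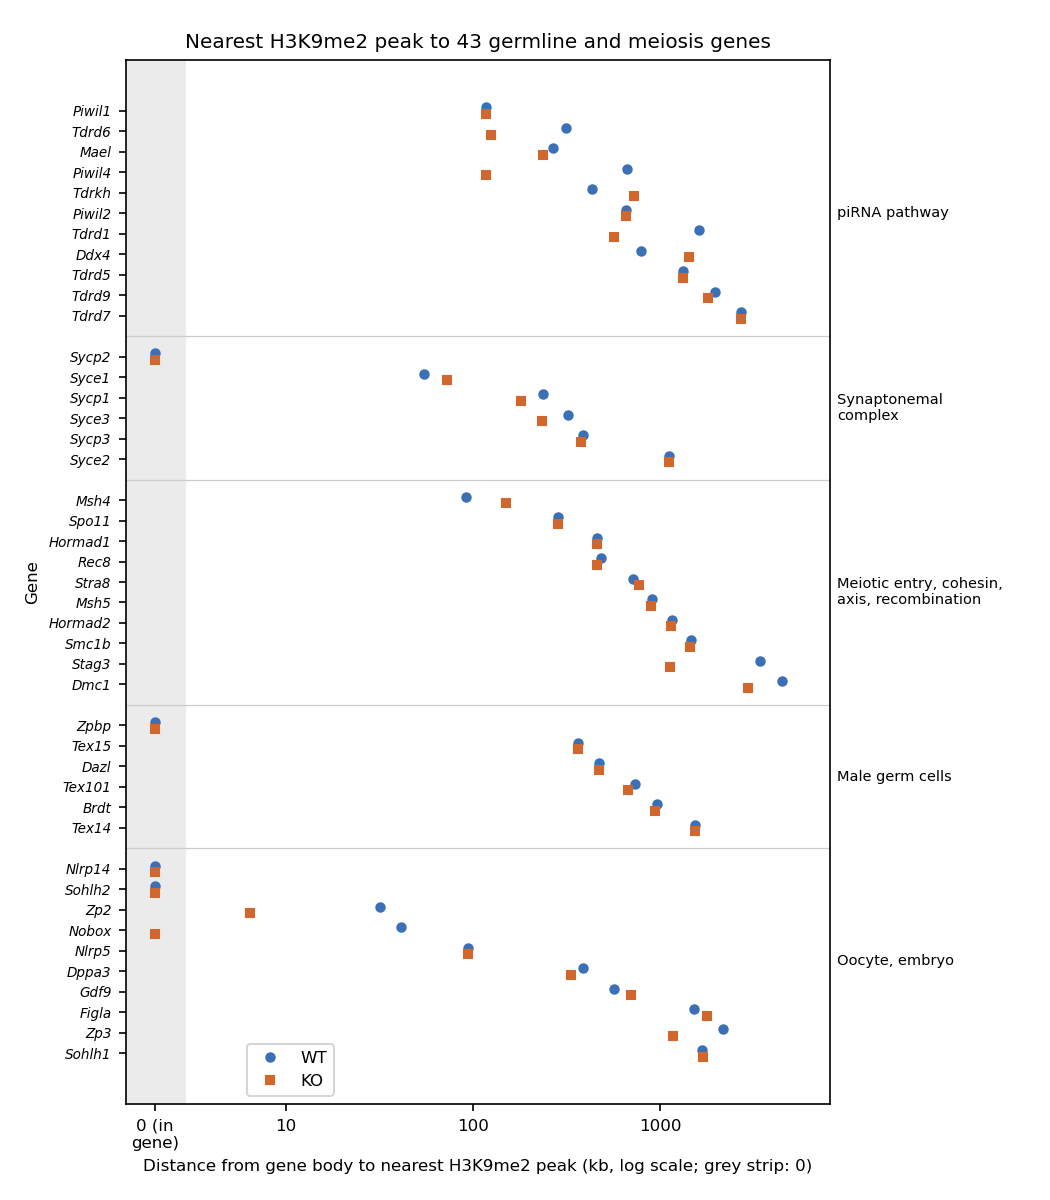
Distance in kb (log scale) from each of the 43 gene bodies to the nearest H3K9me2 peak in WT (blue circles) and KO (orange squares), with genes grouped by role. Points in the grey strip at the left have a peak in the gene body, and Dmc1 is the farthest in both libraries at 4474 and 2951 kb.

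For 11 of the 37 genes without a peak within 10 kb (29.7%) the WT and KO distances were within 1 kb of each other. For 18 (48.6%) the KO peak was nearer by more than 1 kb, and for 8 (21.6%) the WT peak was. Over the 18419 protein-coding genes without a peak within 10 kb the shares were 29.1%, 37.5% and 33.4%. The largest differences were at Stag3, Dmc1, Tdrd1 (1612 kb in WT and 568.1 kb in KO) and Zp3, all nearer in KO. Stag3 and Zp3 are both on chromosome 5 and had the same nearest KO peak, so they are not separate cases. Next came Ddx4, which was nearer in WT (785.3 kb, against 1418 kb in KO). Each such distance depends on 1 nearest peak in each list.

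The 5 genes with a peak in their window each had 14 or more peaks within 500 kb in both libraries, those in the window included. These genes were picked by their peaks, so high counts are partly built in. For Nlrp14, 7 of the 14 WT peaks were its own. The share of all protein-coding genes with 14 or more was not computed, so the counts do not set these genes apart. Within 500 kb of the gene body Nobox had 28 WT and 31 KO peaks, Zpbp 27 and 32, and Sohlh2 27 in both. Sycp2 had 19 and 15, and Nlrp14 14 and 16. The median over all 43 genes was 1 in both libraries, against 2 over all protein-coding genes. A dense neighbourhood did not always reach the gene. Syce1 had 28 WT and 29 KO peaks within 500 kb, Msh4 21 and 19, and Zp2 15 and 14, with 0 in their windows. The numbers of coding genes nearby were alike, with a median of 17 within 500 kb of the germline genes and of 16 over all protein-coding genes.

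**Figure D4:**
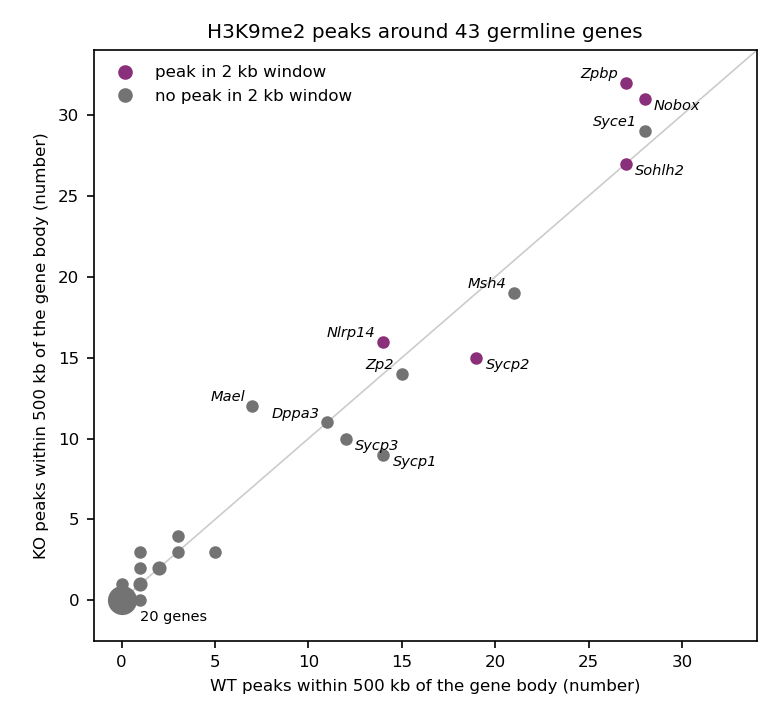
Number of peaks within 500 kb of each gene body in WT (horizontal axis) and KO (vertical axis). Each point is 1 gene or, where larger, several with the same numbers. The line marks equal numbers, and purple points have a peak in their own window. At 0 in both sit 20 genes, and the share of all protein-coding genes there was not computed.

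The promoters were searched for 2 short motifs, the E-box core CACGTG, which MGA and MAX are known to bind, and the core of E2F sites, TCCCGC or its reverse complement GCGGGA, looked for on both strands in the 300 bases of each promoter. CACGTG was found at 13 of the 35 genes with a promoter (37.1%, 21.5 to 55.1%), against 8.91% of 17492 protein-coding genes. TCCCGC was found at 15 (42.9%, 26.3 to 60.6%), against 28.4%, which lies inside the interval, and both at 8 (22.9%, 10.4 to 40.1%), against 3.57%. The germline promoters also had a higher median GC content, 61.0% against 56.3%, and a higher ratio of observed to expected CpG, 0.645 against 0.567, whose part in the motif counts was not tested. Of the 13 genes with CACGTG 0 had a peak in the window in either library (up to 24.7%), and over all 1559 protein-coding genes with it 6.41% had one in WT and 6.16% in KO. Of the 15 with TCCCGC 0 had a peak (up to 21.8%), against 7.30% and 7.42% of 4960 genes. Both limits include the shares of all genes with the motif, so lower shares at germline genes were not detectable. The 4 genes with both a promoter and a peak in the window, Sycp2, Sohlh2, Nobox and Zpbp, held neither motif. Lacking a motif is common. CACGTG was absent at 62.9% of the 35 genes and TCCCGC at 57.1%, against 91.1% and 71.6% of all protein-coding genes. The absence at 4 genes therefore does not show that motifs and peaks avoid each other. A match is only a run of letters and does not show that a factor binds.

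Promoters of Ddx4 and Sycp3 are shown as examples with both motifs and no peak within 10 kb. The 250 bases before the start site are given as above, with the motifs in capitals. Ddx4 lies at chr13:112652311-112652560 on the minus strand and Sycp3 at chr10:88459337-88459586 on the plus strand, where CACGTG occurs at 2 places.
Ddx4: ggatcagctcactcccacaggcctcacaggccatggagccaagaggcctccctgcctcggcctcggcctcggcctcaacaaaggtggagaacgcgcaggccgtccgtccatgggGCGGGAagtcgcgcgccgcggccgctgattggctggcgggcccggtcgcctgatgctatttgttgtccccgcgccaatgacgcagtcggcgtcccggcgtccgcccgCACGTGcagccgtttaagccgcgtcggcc
Sycp3: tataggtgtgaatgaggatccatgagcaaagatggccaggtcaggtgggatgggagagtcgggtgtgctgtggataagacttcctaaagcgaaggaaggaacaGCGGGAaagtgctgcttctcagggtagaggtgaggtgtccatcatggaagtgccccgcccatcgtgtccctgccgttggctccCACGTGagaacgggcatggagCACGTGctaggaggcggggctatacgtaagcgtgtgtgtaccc

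In a list of 81 other germline genes the share with a peak was near that of genes of like length in WT. In KO it was lower, with the length-weighted share inside its interval. In WT 8 had a peak in the window (9.88%, 4.36 to 18.5%), with 9.90% as the length-weighted share of protein-coding genes, and in KO 5 had one (6.17%, 2.03 to 13.8%), with 10.1%. The roles differed. In WT 3.85% of 26 meiosis genes had one (0.0973 to 19.6%), with 12.6% length-weighted, and 16.7% of 24 oocyte genes (4.74 to 37.4%), with 6.56%. In KO the shares were 3.85%, with 12.8%, and 8.33% (1.03 to 27.0%), with 6.69%. These intervals include the length-weighted shares. Their median distance to a peak, 331.5 kb in WT and 347.1 kb in KO, stood beside 344.8 and 323.9 kb over all protein-coding genes and 483.9 and 470.5 kb over the 43 genes, a difference that was not tested. Peaks in both libraries were found at Mei4, a gene of meiotic break formation (15 WT and 22 KO peaks over 342338 bp), and at Spata16, of the acrosome (7 and 9 over 345630 bp). They were also found at Asz1, a piRNA pathway gene (8 and 7 over 58098 bp), and at Lhx8, an oocyte homeobox gene (1 and 2). In WT only were Nlrp2 (2 peaks), Nlrp4f (1), Dppa2 (1) and Rbm46 (1), and in KO only Nlrp9b (2). The genes that make the counts of 8 and 5 differ thus had 1 or 2 peaks each. Over all protein-coding genes, 1.90% were called in WT alone, 2.11% in KO alone and 7.78% in both. Those shares are not matched for length. No interval was computed for the listed genes called in 1 library, so their number does not set them apart. Rbm46 had a KO peak 2.01 kb from the gene, just outside the window, and Nlrp genes are members of a multigene family.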

How the data were processed

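H3K9me2 CUT&Tag peaks of 2 libraries, 1 WT and 1 KO by the genotype label, were used. Per the submitters' processing notes, which give no roles, the tools included deepTools, HOMER, Bowtie2 2.4.2, Picard, Trim Galore 0.6.6 and SAMtools 1.11, and the build was mm10. Per the file headers, the broad peaks of each library come from MACS2 2.2.7.1 at a q of 0.01, with all duplicates kept, no control and a fragment length d of 292 bp in WT and 189 bp in KO. WT peaks had a median width of 486 bp and KO peaks of 376 bp, so covered lengths are not equal measures; the part of d in this was not tested. The deposited pileup is a coverage signal not scaled between libraries, the deposited q-value and p-value columns are −log10, and the deposited fold enrichment is the caller's ratio to local background; they rank peaks within a list only.

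Gene coordinates are those of a RefSeq table for GRCm38.p6, on which mm10 rests; 348 scaffold genes were left out. All 43 members and all 81 other genes matched by symbol or synonym. Windows, distances and overlaps of at least 1 bp were computed with Python 3.11.15, pandas 2.3.3 and scipy 1.17.1, with Clopper-Pearson and Poisson intervals; the functions were checked on simulated data. The promoter table gave the strand of 35 genes. Named genes were all members with a peak within 10 kb or within 1 kb of an end, the 5 nearest and 5 farthest of the others, other germline genes with a peak within 2 kb, and some members added for their role after their values were seen. The members and lists were chosen with earlier results of these data known. The 500 kb neighbourhoods, the comparison of WT and KO distances and the window counts by motif were added after the data were seen.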

Additional observations from a re-analysis of the deposited data

How the results depend on the processing

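Counts of genes and peaks in windows and at gene ends, median distances, genes without a peak within 500 kb, WT and KO sharing and the length-weighted shares were recomputed under other settings. Of 51 values 35 stayed within 1.5 times the reported one. Most others moved under limits on peak strength or width. With peaks at a q of 1e-05 or lower, genes with a peak in the window numbered 1 in WT and 0 in KO, their peaks 1 and 0, genes with an end peak 0 and 0, and the median distance was 1021 kb in WT and 1120.0 kb in KO. With peaks at least 1 kb wide, 1 gene with 1 peak was left in each library, and the median distance was 1264 kb in WT and 1783 kb in KO. These settings leave fewer peaks in both lists. Wider windows moved the rest: with 5 kb around gene ends the WT count was 3, and with 10 kb flanks 2 genes had a peak in KO only. Windows without flank, peak midpoints, equal numbers of peaks, peaks merged within 5 kb, 20 length classes, autosomes only, reciprocal overlap of 50% and KO peaks widened by the 103 bp difference in d (the last, for the count of genes, chosen after seeing the data) moved no value by more than 1.5 times. Counts by start site, role and motif, peak strength, the comparison of WT and KO distances and the 81 other genes were not recomputed. With 1 library per genotype no replicate could be left out. The counts rest on 12 and 13 peaks, and their intervals cover a difference of 1 or 2 genes.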
